A study of Mus musculus with 96 samples.

Results

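The genes of the proteasome subunits were followed in bulk mRNA of mouse cerebellum, cortex and hippocampus. Members were all gene symbols made of Psma, Psmb, Psmc or Psmd and a number, with 1 gene of that pattern not reported here. The choice used names and no measured value, but it was made with earlier results of these data known. It gave 38 of the 35486 symbols in the count table, of which 36 other members were set against the immune subunits Psmb9 and Psmb10.

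All animals were male C57BL/6J mice, which carried no engineered allele according to the labels. In the first experiment, 29 mice gave 1 library from each of the 3 regions. Untreated (naive) mice were labelled 2 months (4 mice) or 18 months (3 mice) old, while the text of the series gives the young age as 3 months. Phosphate-buffered saline (PBS) was injected daily for 7 days at 18 months (4 mice) or 22 months (3 mice). Plasma of young donors (OPL in the labels) was injected for the same time at 18 months (5 mice) or 22 months (3 mice). Treatment for 24 days, read at 19 months, used PBS (OPLTPBS, 4 mice) or young plasma (OPLTOPL, 3 mice). The second experiment measured hippocampus of PBS-injected (4) and plasma-injected (5) mice of 18 months. Young mice received no injection, so no young injected control stands beside the older ones. The sample titles carry a further number, whose meaning they do not give. Plasma and PBS mice of 18 months shared it in part, as did those of 22 months, and all mice of the second experiment had 1 number. In every other comparison of ages or injections the groups had no number in common, so what it marks cannot be told apart from the groups. Nothing in the labels says that mice were pooled, and each mouse was taken as 1 replicate.

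The proteasome is the protease complex that breaks down proteins tagged with ubiquitin. Its core is a barrel of alpha and beta rings, in which Psmb6, Psmb7 and Psmb5 encode the constitutive catalytic beta subunits, and its regulatory particle is made of an ATPase base (Psmc genes and some Psmd genes) and a lid (Psmd genes). Under interferon, and in immune cells at rest, the catalytic sites are exchanged for immune subunits: Psmb9 takes the place of Psmb6, and Psmb10 that of Psmb7, and the resulting immunoproteasome makes peptides for class I antigen presentation. In brain, microglia are a known site of immunoproteasome expression.

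Both immune genes, Psmb6 (the counterpart of Psmb9) and Psmb5 (the third constitutive catalytic gene) are shown by the 300 bases around their start, since the results turn on how the catalytic genes differ. Psmb7, the counterpart of Psmb10, had no entry. The sequences are from RefSeq on GRCm38.p6 and run from 250 bases before to 50 bases after the start, 5′ to 3′ on the gene's strand; 31 of the 38 members had such an entry. Capitals mark matches to motifs searched on both strands: GAAA, any 2 bases and GAAA again (a core of interferon-stimulated response elements), TTCNNNGAA (a core of the sites of STAT factors), CCAAT and TGACNNNGC (the antioxidant-response core bound by Nfe2l1 and Nfe2l2).

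Psmb9, chr17:34187281-34187580, minus strand: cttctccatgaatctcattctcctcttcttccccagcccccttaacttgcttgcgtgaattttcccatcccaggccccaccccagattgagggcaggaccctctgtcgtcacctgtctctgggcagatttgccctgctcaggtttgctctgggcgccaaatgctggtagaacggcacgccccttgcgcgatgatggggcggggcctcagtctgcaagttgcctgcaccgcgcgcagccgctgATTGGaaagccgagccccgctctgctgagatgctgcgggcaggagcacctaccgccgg

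Psmb10, chr8:105938343-105938642, minus strand: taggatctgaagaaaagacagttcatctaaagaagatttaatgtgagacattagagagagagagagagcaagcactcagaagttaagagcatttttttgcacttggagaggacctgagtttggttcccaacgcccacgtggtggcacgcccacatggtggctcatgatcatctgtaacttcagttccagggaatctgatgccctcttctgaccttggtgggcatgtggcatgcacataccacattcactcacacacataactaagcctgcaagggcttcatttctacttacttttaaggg

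Psmb6, chr11:70525107-70525406, plus strand: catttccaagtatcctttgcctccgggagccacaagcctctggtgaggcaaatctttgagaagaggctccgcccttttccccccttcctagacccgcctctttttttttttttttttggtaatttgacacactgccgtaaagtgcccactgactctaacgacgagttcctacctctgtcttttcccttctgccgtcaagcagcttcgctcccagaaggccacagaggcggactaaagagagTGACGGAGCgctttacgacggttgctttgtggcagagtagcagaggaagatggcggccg

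Psmb5, chr14:54617946-54618245, minus strand: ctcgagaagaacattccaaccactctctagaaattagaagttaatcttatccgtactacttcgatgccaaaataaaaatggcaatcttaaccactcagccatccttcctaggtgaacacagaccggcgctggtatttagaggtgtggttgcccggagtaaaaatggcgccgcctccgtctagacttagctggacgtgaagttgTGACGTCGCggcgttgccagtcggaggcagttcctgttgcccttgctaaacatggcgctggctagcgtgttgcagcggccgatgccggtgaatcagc

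In the Psmb9 window the capitals are CCAAT read on the other strand, in the Psmb6 and Psmb5 windows they are TGACNNNGC, and the Psmb10 window held none of the 4 motifs. The interferon core was found in neither immune window but in those of Psmd4, Psmd9 and Psmb3, 3 of 31 members (9.7%) against 3.44% of 32851 promoters of the same length. TGACNNNGC was in 5 of 31 (16.1%, against 12.39%), CCAAT in 13 of 31 (41.9%, against 37.41%), and TTCNNNGAA in 1 of 31 (3.2%, against 8.3%). A match describes letters in this window only.

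On GRCm38, Psmb9 spans chromosome 17, bases 34181987 to 34187764, and Psmb10 spans chromosome 8, bases 105935735 to 105938444, both on the minus strand. Exons of Psmb9 overlap those of Tap1, which encodes a peptide transporter of class I loading and runs on the opposite strand, by 212 bases (15.68% of the exon bases of Psmb9). Exons of Psmb7 overlap those of Nek6 by 405 bases (34.91%), also on the opposite strand. Because the libraries do not mark strand, reads from these stretches cannot be told apart.

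Library depth ran from 851288 to 23768385 counts, with a median of 8889509 over 96 libraries. Summed cerebellar neuron markers lay at 3417 CPM (counts scaled to a library total of 1000000) or above in cerebellum. In cortex they lay at 38.2 CPM or below. Cortex and hippocampus were less cleanly apart. Cortical neuron markers ran from 482 to 1027 CPM in cortex and from 200 to 739 CPM in hippocampus. Hippocampal neuron markers ran from 42.3 to 473 CPM in hippocampus, 19.3 to 42.6 CPM in cortex and 58.2 to 101 CPM in cerebellum. Before any result, 7 libraries stood apart by depth (under 2500000 counts) and 9 by low neuron markers of their own region, with 1 in both sets. Among naive mice these were the cortex of 18-month replicate 3 (1815609 counts), the cortex and hippocampus of 2-month replicate 14 (low markers) and the hippocampus of 2-month replicate 20 (1816018 counts, low markers).

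Proteasome genes were expressed in all 3 regions, and the immune subunits lay at the foot of the range. Per kilobase of exon, the ATPase gene Psmc5 (147 CPM per kb in cerebellum, 139 in cortex, 124 in hippocampus) and Psmb6 (138, 122 and 133) were the 2 highest members in every region. Psmb10 ranked 34 of 38 in cerebellum (11.1 CPM per kb) and 32 in cortex (24.8) and hippocampus (19.6), among the assembly chaperones Psmd5, Psmd9 and Psmd10, which help to build the base and leave it. Psmb9 ranked 36 in every region, at 1.55, 1.58 and 1.75 CPM per kb. Below it stood Psma8, an alpha subunit of testis proteasomes, and Psmb11, the catalytic subunit of the thymus. Psmb11 was at 0 in 25, 11 and 9 of 29 libraries of cerebellum, cortex and hippocampus, and Psma8 in 8, 4 and 3.

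**Figure D1:**
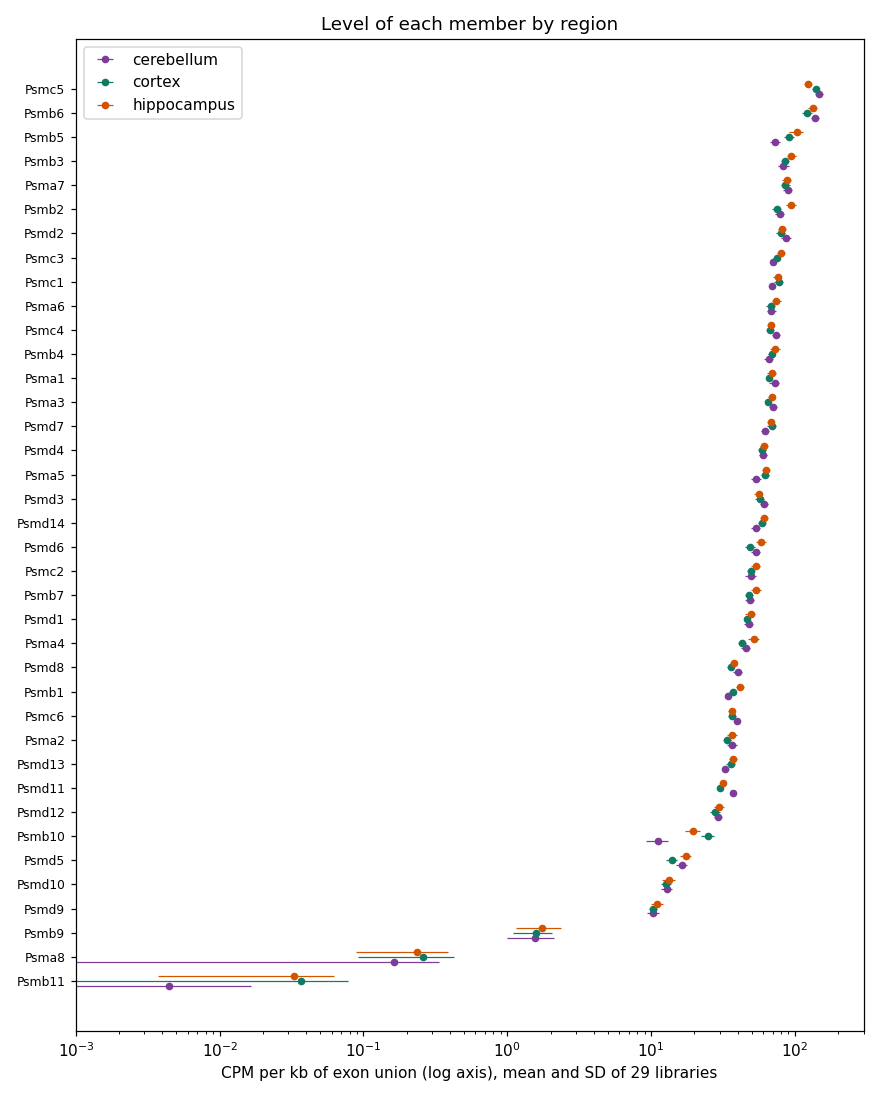
Mean level of each of the 38 members, in CPM per kb of exon on a log axis, with the SD over 29 libraries for each region; bars that reach 0 are clipped at the axis. Psmc5 and Psmb6 lead in every region and Psmb9, Psma8 and Psmb11 lie at the bottom.

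The spread over libraries followed the level. Psmb9 rested on 1 to 48 counts per cerebellar library, 5 to 65 in cortex and 2 to 66 in hippocampus, and its coefficient of variation over 29 libraries was 36.0%, 30.3% and 34.3%. For Psmb10 it was 17.1%, 10.3% and 12.0%. Over 34 members (all but Psmb9, Psmb10, Psma8 and Psmb11), correlations were taken between deviations of log2 CPM from the group means across the 29 libraries. Their pairwise median was 0.17 in cerebellum, 0.35 in cortex and 0.47 in hippocampus. The median correlation with these 34 was 0.003, -0.02 and -0.06 for Psmb9 and 0.11, 0.45 and -0.03 for Psmb10. All pairs share library depth and preparation, and the values are descriptions without a test.

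The regions differed most in Psmb10. Its level had a lowest, median and highest value of 8.74, 14.6 and 19.97 CPM in cerebellum, 25.9, 32.7 and 41.9 CPM in cortex, and 19.9, 26.4 and 32.9 CPM in hippocampus (29 libraries each). The cerebellar and cortical ranges did not touch, and Psmb10 was lower in cerebellum than in cortex in 29 of 29 mice and lower in hippocampus than in cortex in 26 of 29. Averaged over the 8 groups, the log2 difference from cortex was -1.33 ± 0.04 (SE) in cerebellum (edgeR adjusted p = 3.49e-40) and -0.35 ± 0.04 in hippocampus (adjusted p = 1.65e-11). Hippocampus exceeded cerebellum by 0.98 ± 0.05 (adjusted p = 7.57e-32). Psmb9 behaved otherwise, with medians of 2.14, 2.09 and 2.44 CPM in cerebellum, cortex and hippocampus and ranges that overlapped throughout. Its difference from cortex was -0.16 ± 0.11 in cerebellum (edgeR adjusted p = 0.148) and 0.17 ± 0.10 in hippocampus (adjusted p = 0.145). Hippocampus lay 0.33 ± 0.11 above cerebellum (adjusted p = 0.00313), a call that was lost when libraries were scaled to their total count (0.19, adjusted p = 0.0953).

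That scaling matters for regions. TMM, the size factors used here, assumes that most genes do not differ, and replacing it by total counts moved the median of all genes in cerebellum against cortex from 0.02 to 0.19 and in hippocampus against cerebellum from -0.02 to -0.17. With TMM, 1 member rose and 26 fell among 36 in cerebellum against cortex, where 83.3% of all genes were called (43% higher and 40.3% lower). With total counts, 18 rose and 10 fell, against 53.6% and 31.9% of all genes. In hippocampus against cerebellum (84.1% of all genes called, 40.9% higher and 43.2% lower) 29 rose and 2 fell with TMM. With total counts these were 19 and 8, against 33.3% and 52.3% of all genes. In hippocampus against cortex (60.3% called, 29.9% higher and 30.3% lower) 18 rose and 2 fell with TMM, and 23 and 2 with total counts (32.3% and 28% of all genes). The members' median in cerebellum against cortex was -0.12 with TMM and 0.05 with total counts, below the median of all genes with each scaling. The direction of the constitutive subunits as a group in cerebellum thus depended on the scaling, and the genes named next are mostly given with both.

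Among the catalytic subunits, Psmb5, the chymotrypsin-like site, was lower in cerebellum than in cortex by 0.49 ± 0.04 on the log2 scale (log2 change -0.49 with TMM, edgeR adjusted p = 3.37e-20; -0.32 with total counts), and lower in 29 of 29 mice. It averaged 65.6 ± 5.28 CPM in cerebellum, 82.0 ± 6.73 in cortex and 92.3 ± 9.92 in hippocampus (SD, n = 29). Psmb6, the caspase-like site, averaged 110 ± 6.50, 97.5 ± 8.04 and 106 ± 7.60 CPM, and its cerebellum against cortex difference was 0.02 with TMM and 0.18 with total counts. Psmb7, the trypsin-like site, averaged 56.3 ± 3.97, 56.0 ± 3.75 and 62.4 ± 5.35 CPM. Its difference in the same comparison was -0.15 with TMM and 0.01 with total counts. The drop of Psmb10 in cerebellum was -1.16 with total counts, larger than that of any of the 3 constitutive catalytic genes with either scaling.

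With TMM, the other members named here moved less than Psmb10 in each comparison of regions. In cerebellum against cortex, the alpha ring gene Psma5 (-0.36 with TMM, -0.19 with total counts), the ATPase gene Psmc1 (-0.31 and -0.14), the lid gene Psmd7 (-0.31 and -0.14) and the lid deubiquitinase Psmd14 (-0.30 and -0.13) were lower, and the lid gene Psmd11 was higher (0.12 and 0.29). In hippocampus against cortex, the beta ring gene Psmb2 (0.32), the chaperone Psmd5 (0.29), the alpha ring gene Psma4 (0.25) and the lid gene Psmd6 (0.23) were higher and Psmc5 was lower (-0.18), all with TMM. In hippocampus against cerebellum, Psmb2 and Psmb1 were each 0.41 higher with TMM and 0.26 higher with total counts. Psmc5 was lower there (-0.10 with TMM, -0.25 with total counts). The catalytic gene Psmb5 was higher in the same comparison (0.65 with TMM, 0.50 with total counts).

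**Figure D2:**
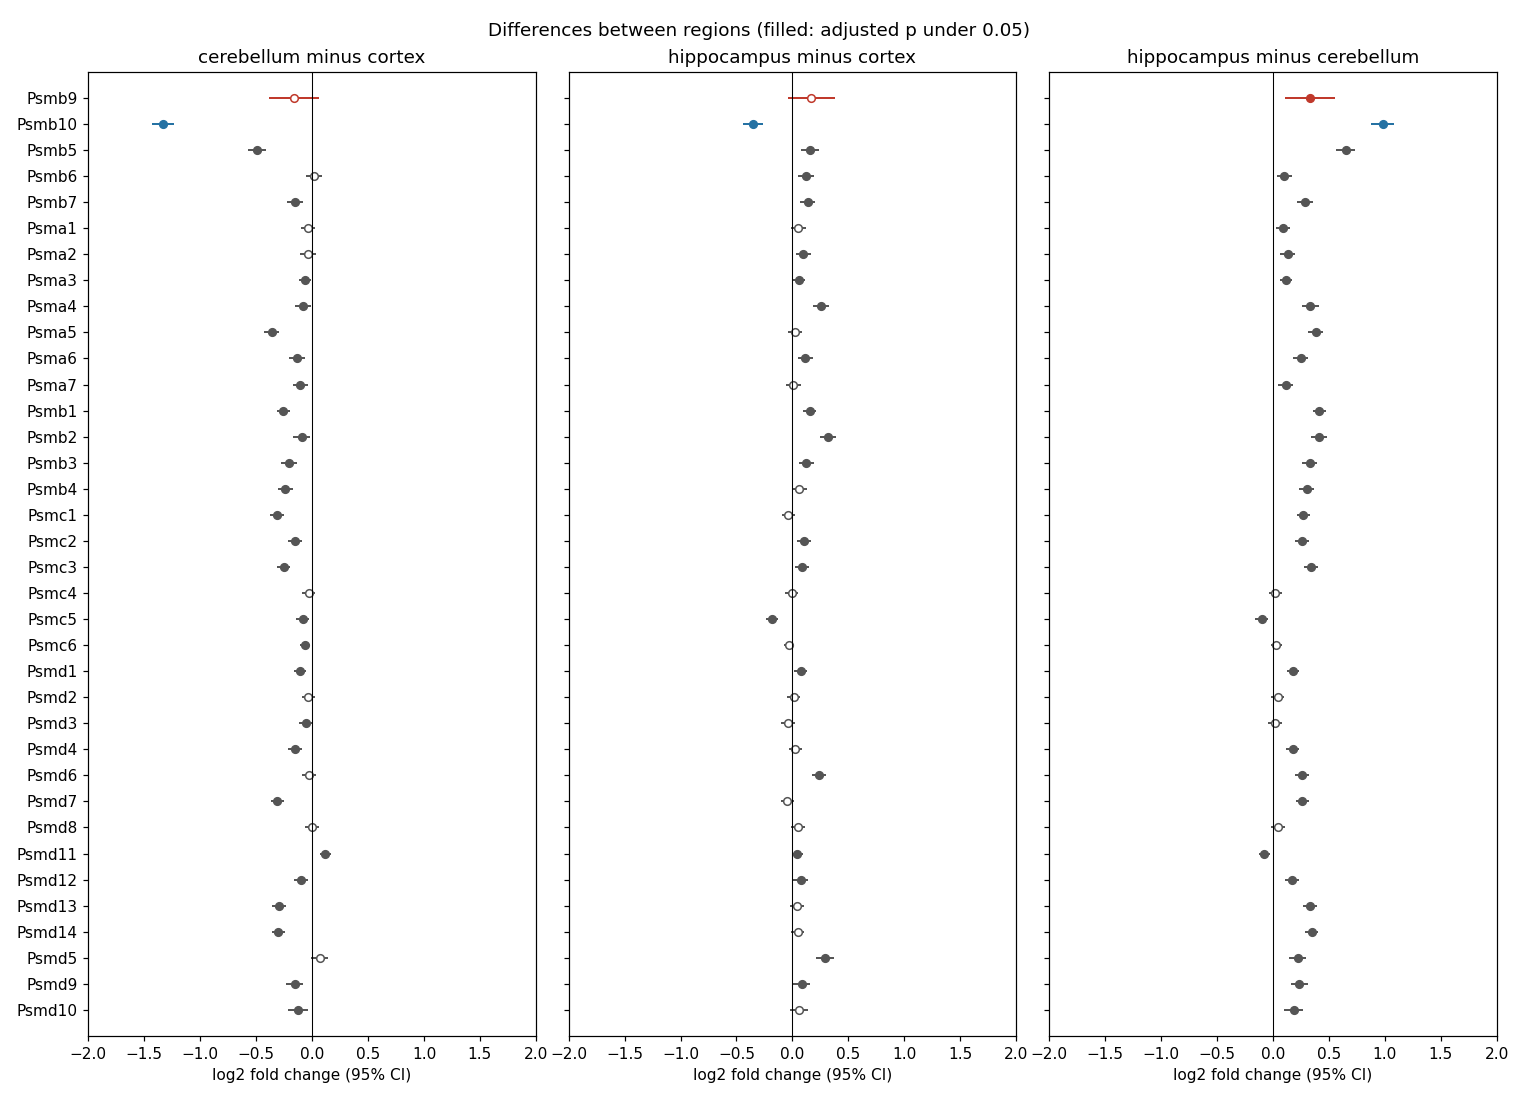
Log2 difference between regions with its 95% confidence interval (CI) for 36 members, from TMM-scaled counts of 87 libraries; filled points have an edgeR adjusted p under 0.05. Psmb10 (blue) stands at -1.33 in cerebellum against cortex, left of every other member.

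Cell content moved with the Psmb10 pattern in part. The 12 microglia markers summed to 159 to 340 CPM in cerebellum, 383 to 563 in cortex and 459 to 650 in hippocampus. All 12 were lower in cerebellum than in cortex by the same test (40.3% of all genes lower). Between hippocampus and cortex the markers went the other way from Psmb10, with 8 of 12 higher in hippocampus (29.9% of all genes higher). The 6 neuron markers had medians of 4541, 6614 and 4913 CPM in cerebellum, cortex and hippocampus, the order of Psmb10. Lymphocyte, macrophage and endothelium markers also had their highest median in cortex. Astrocyte, oligodendrocyte, choroid plexus and red blood cell markers had theirs in another region. The part of these cells in the Psmb10 result was not tested. In bulk samples fewer cells of a type and less RNA per cell cannot be told apart.

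With age, Psmb9 was 1.77-fold higher in cerebellum, 1.94-fold in cortex and 2.01-fold in hippocampus, but in no region did it pass the threshold over all genes. In cerebellum it measured 1.27, 1.09, 1.10 and 0.879 CPM in the naive 2-month mice (4 to 7 counts each) and 1.71, 1.65 and 2.79 CPM in the naive 18-month mice (11 to 14 counts). In cortex the young values were 1.62, 1.27, 1.98 and 1.14 CPM and the old ones 3.86, 2.55 and 3.24 CPM. In hippocampus they were 1.25, 1.43, 1.35 and 1.10 CPM against 2.74, 3.42 and 2.36 CPM. Every old library lay above every young one in all 3 regions. The log2 change was 0.82 ± 0.38 in cerebellum (SE; edgeR adjusted p = 0.291), 0.95 ± 0.29 in cortex (adjusted p = 0.401) and 1.01 ± 0.35 in hippocampus (adjusted p = 0.581). Leaving out each mouse in turn gave 0.58 to 0.97, 0.86 to 1.21 and 0.85 to 1.20. Without the libraries of low markers the change was 0.85 in cortex and 1.04 in hippocampus, and without the shallow ones 0.86 and 0.99.

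The naive mice gave all 3 regions, so the mean log2 level per mouse was also compared, a fit chosen after seeing the data. There Psmb9 was 0.91 ± 0.21 higher at 18 months (SE, 3 against 4 mice; limma adjusted p = 0.0254) and was the sole member called, against 1.4% of all 16500 genes. The other catalytic genes differed by 0.07 ± 0.08 (Psmb10), -0.04 ± 0.05 (Psmb6), 0.04 ± 0.05 (Psmb7) and -0.06 ± 0.06 (Psmb5), with limma adjusted p from 0.76 to 0.832. Tap1, whose exons overlap those of Psmb9, was 0.92 ± 0.20 higher (limma adjusted p = 0.0122), and how much of the Psmb9 count it gave was not tested.

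Psmb9 of the injected mice was also set beside the young libraries. Of the 25 older libraries of a region, naive and injected, 23 in cerebellum, 16 in cortex and 24 in hippocampus lay above the highest young library. For Psmb10 these counts were 24, 3 and 0, for Psmb6 0, 3 and 12, and for Psmb7 3, 5 and 23. Below the lowest young library lay 0, 1 and 0 of them for Psmb9, 1, 9 and 3 for Psmb10, 1, 5 and 1 for Psmb6, and 5, 9 and 0 for Psmb7. The young side was the same 4 mice each time, and most older mice had been injected. The share of all genes with counts this high was not computed. Psmb10 in cerebellum and Psmb7 in hippocampus reached counts like those of Psmb9, so the counts are descriptions.

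Psmb10 of old and young mice was apart in cerebellum and overlapped in the other regions. It measured 10.9, 11.1, 12.9 and 9.89 CPM in young and 13.7, 15.3 and 13.4 CPM in old cerebellum, without overlap, a log2 change of 0.32 ± 0.13 (edgeR adjusted p = 0.192). In cortex young values of 31.4, 32.5, 34.6 and 35.7 CPM stood beside 41.9, 28.5 and 32.7 CPM, and the change was -0.04 ± 0.13 (adjusted p = 1). In hippocampus the values were 22.0, 32.9, 22.5 and 29.2 CPM against 27.8, 21.5 and 27.6 CPM, a change of -0.08 ± 0.14 (adjusted p = 1). The hippocampal sign turned without young replicate 14 (0.08), without old replicate 6 (0.024) and without all libraries of low markers (0.18), and with limma-voom (0.11). The cortical sign turned without old replicate 6 (0.13). The difference of the Psmb10 change itself was -0.36 ± 0.19 for cortex minus cerebellum (edgeR adjusted p = 0.958) and -0.40 ± 0.19 for hippocampus minus cerebellum (adjusted p = 0.558). No member was called in these differences between regions, where 0.041% and 0.0513% of all genes were.

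**Figure D3:**
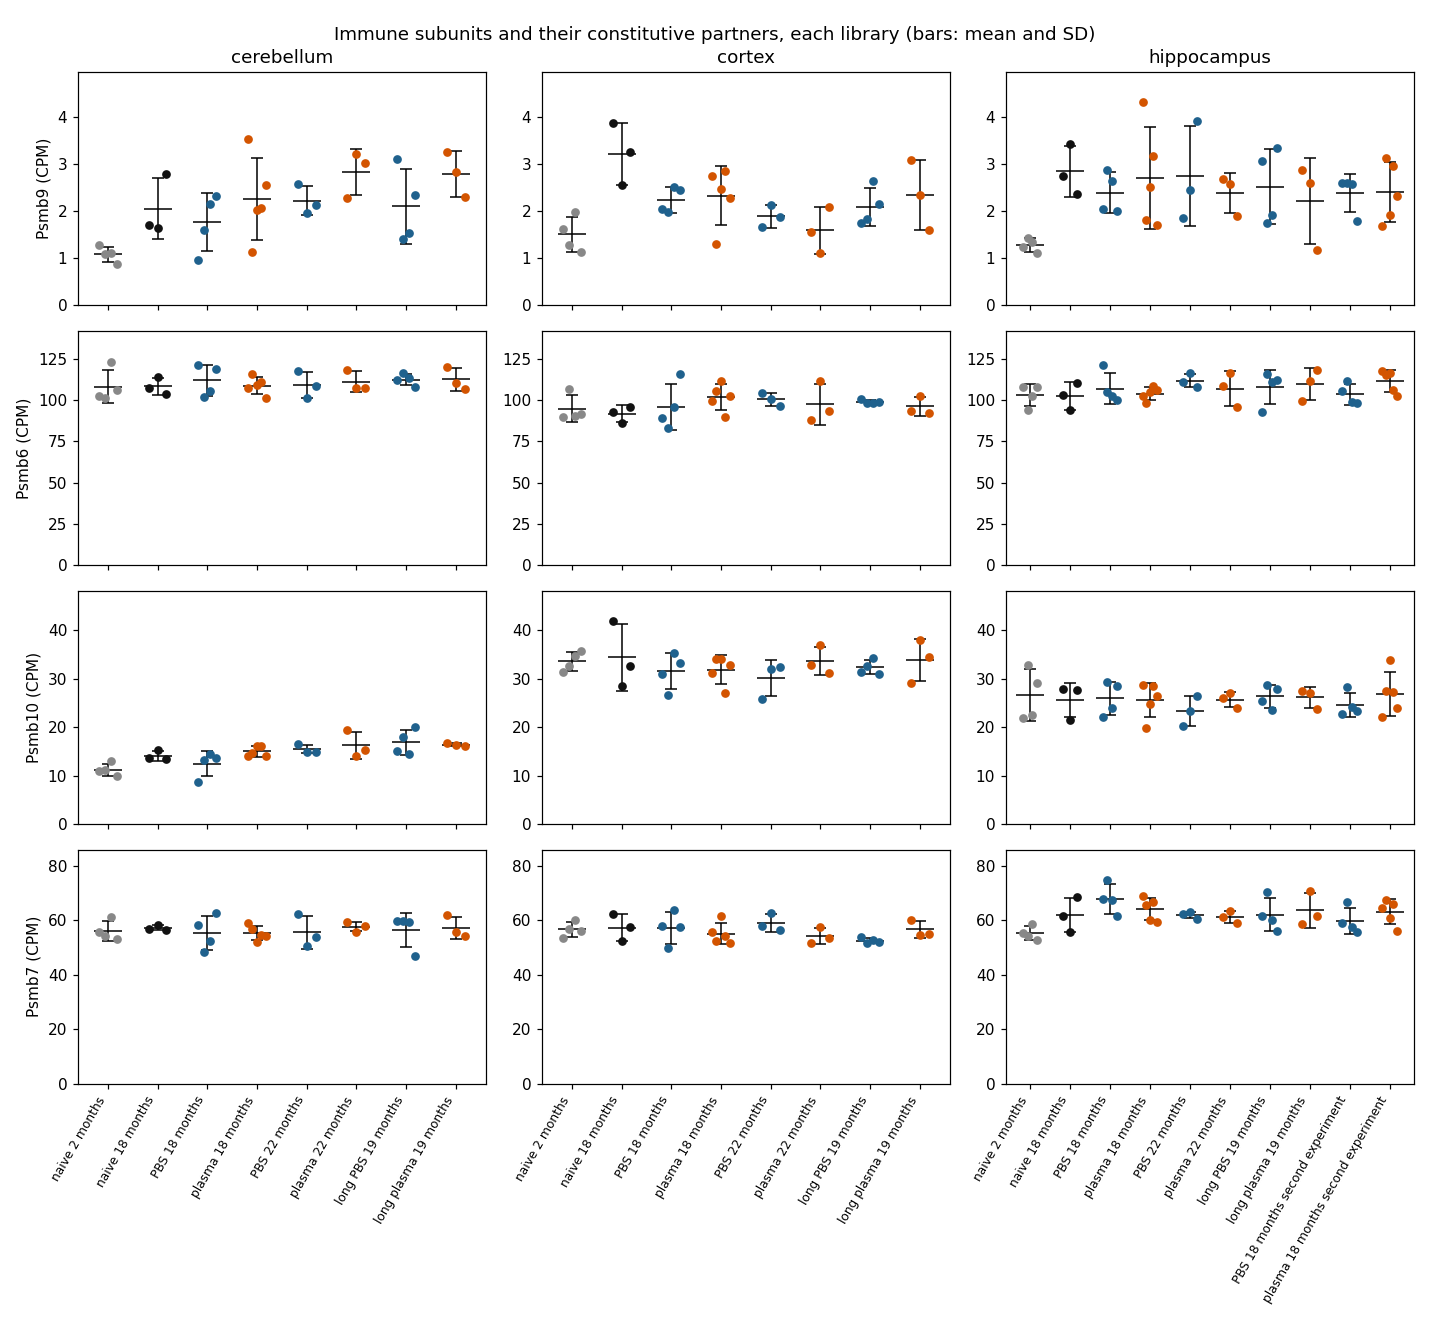
Level in CPM of Psmb9, Psmb10, Psmb6 and Psmb7 in every library, by region and group, with the mean and SD of each group (grey and black naive, blue PBS, orange plasma; long is 24 days; the second experiment is in hippocampus alone). The naive 2-month group has the lowest mean of Psmb9 in each region, and Psmb10 sits lower in cerebellum than in cortex throughout.

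The constitutive subunits stayed close to their young levels. Of all members tested, edgeR called 0 of 36 in cerebellum, 0 of 37 in cortex and 0 of 36 in hippocampus, where 2.39%, 0.112% and 0.0719% of all genes were called. At an unadjusted p under 0.05 there were 3, 1 and 4 members, against 15%, 6.18% and 6.39% of all genes, and DESeq2 and limma-voom also called 0. For the 31 constitutive subunits the median log2 change was -0.04 in cerebellum (7 higher, 24 lower), -0.004 in cortex (15 higher, 16 lower) and 0.01 in hippocampus (16 higher, 15 lower), beside 0.01, 0.01 and -0.01 for all genes. Their changes ran from -0.22 to 0.07, from -0.18 to 0.13 and from -0.19 to 0.14. In each region all 31 had a 95% CI within 0.5 log2 units of 0, so changes of the size estimated for Psmb9 lay outside those intervals.

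Psmb6, which Psmb9 replaces, changed by -0.02 ± 0.07, -0.07 ± 0.10 and -0.03 ± 0.09 in cerebellum, cortex and hippocampus. Psmb7 changed by 0.01 ± 0.09, -0.02 ± 0.08 and 0.13 ± 0.10. The largest constitutive change in cerebellum was Psmb5, at 72.3 ± 5.23 CPM in young (SD, n = 4) and 62.8 ± 2.91 CPM in old mice (n = 3). It did not overlap between the ages and its log2 change was -0.22 ± 0.08 (edgeR adjusted p = 0.126). In hippocampus, the lid gene Psmd11 changed by -0.19 ± 0.07 (edgeR adjusted p = 0.653), the chaperone Psmd5 by 0.23 ± 0.11 (adjusted p = 0.759) and the ATPase gene Psmc6 by 0.13 ± 0.06 (adjusted p = 0.77). Groups without overlap numbered 4 of 36 members in cerebellum (Psmb9, Psmb10 and Psma7 higher, Psmb5 lower), 1 of 37 in cortex (Psmb9) and 2 of 36 in hippocampus (Psmb9 and Psmc6). The shares of all genes without overlap were 13.6%, 6.34% and 6.31%, so the counts lay near or below the background.

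**Figure D4:**
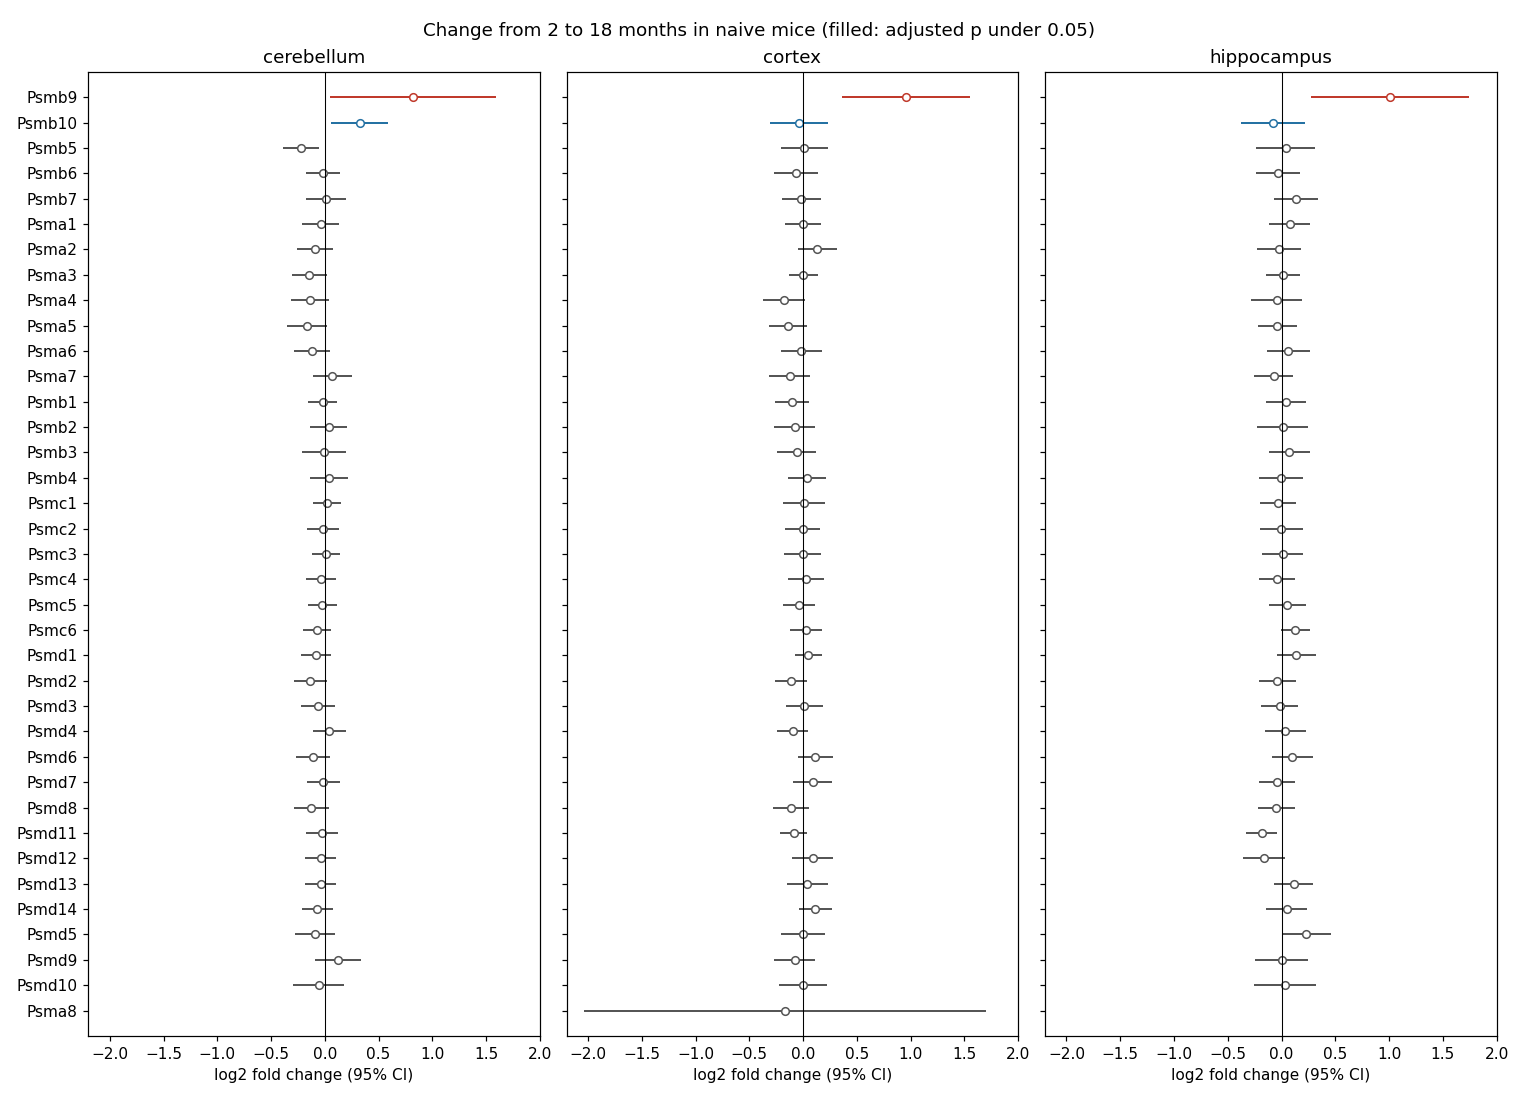
Log2 change of each tested member between naive 18-month (n = 3) and 2-month (n = 4) mice with its 95% CI, by region. The Psmb9 estimates (0.82, 0.95 and 1.01) stand to the right of the 31 constitutive subunits, which lie between -0.22 and 0.14.

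Ratios within a library put each immune gene beside its counterpart. Psmb9 stood at 10.1 ± 1.86 counts per 1000 of Psmb6 in young and 19.1 ± 6.76 in old cerebellum, 16.0 ± 4.75 and 34.9 ± 6.00 in cortex, and 12.5 ± 2.15 and 28.1 ± 7.59 in hippocampus (SD, n = 4 and 3). Old and young ratios did not overlap in any region. The exact permutation p, two-sided, was 0.0286 in cerebellum and hippocampus, the smallest that 3 against 4 mice allow, and 0.0571 in cortex. Psmb10 stood at 199 ± 10.9 and 246 ± 14.4 per 1000 of Psmb7 in young and old cerebellum (exact permutation p = 0.0286), with values of 591 ± 29.7 and 595 ± 68.1 in cortex and 484 ± 111 and 412 ± 33.6 in hippocampus. None of the 38 ratio tests passed Benjamini-Hochberg adjustment, the lowest adjusted p being 0.217. The exact p cannot fall below 0.0286 for 3 against 4 mice or 0.1 for 3 against 3. A lone test at that floor cannot pass over 38 tests, so the missing calls cannot show that ratios were unchanged.

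Genes around the proteasome were taken from lists of its pathway. Among 5 activator and inhibitor genes, Psme1, a subunit of the interferon-inducible PA28 activator, rose with age in cerebellum from 12.1 ± 1.09 to 18.3 ± 1.68 CPM (log2 change 0.57 ± 0.13, edgeR adjusted p = 0.0156). Its partner Psme2 had a change of 0.42 ± 0.13 (adjusted p = 0.0706). In cortex and hippocampus 0 of the 5 were called, and Psme1 changed by 0.07 and 0.02. Of 15 assembly factors and partners and of 5 regulators of proteasome genes, 0 were called in any region. Among 14 genes of class I loading and interferon signalling, 7 rose in cerebellum, 1 in cortex (H2-K1, a class I heavy chain, 0.73 ± 0.15, edgeR adjusted p = 0.0483) and 0 in hippocampus, where 2.39%, 0.112% and 0.0719% of all genes were called. In cerebellum Tap1 went from 2.49 ± 1.25 to 6.52 ± 1.78 CPM, a log2 change of 1.32 ± 0.30 (edgeR adjusted p = 0.01). It changed by 0.86 ± 0.31 in cortex (adjusted p = 0.619) and 0.64 ± 0.25 in hippocampus (adjusted p = 0.651).

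Microglia markers moved with age in cerebellum, where their sum was 159 to 175 CPM in young and 256 to 291 CPM in old mice, and 7 of 12 rose (2.39% of all genes called). In hippocampus the sums were 459 to 528 and 582 to 650 CPM, and 2 of 12 rose (0.0719% of all genes called). In cortex the sums overlapped, at 456 to 554 and 485 to 528 CPM with 0 of 12 called (0.112% of all genes called), and the Psmb9 values did not overlap there. No microglia marker was at 0 in any group. The 8 lymphocyte markers together reached 0.182 to 0.725 CPM in young and 0.706 to 1.55 CPM in old cerebellum. Choroid plexus markers (5 genes) summed to 23.0 to 1092 CPM in young and 1076 to 1505 CPM in old cerebellum, 6.08 to 31.9 and 6.61 to 74.4 CPM in cortex, and 10.7 to 258 and 43.9 to 96.4 CPM in hippocampus, with 0 of 5 called in each. The 6 oligodendrocyte markers summed to 3308 to 6024 CPM in young and 5612 to 7972 CPM in old hippocampus, with 0 called, and to 5525 to 7038 and 4911 to 5874 CPM in cerebellum, where 3 fell. The part of these cells in the age values of Psmb9, Psmb10, Psme1 and Tap1 was not tested in any region.

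Injection and age after injection left the members without a call. In 17 comparisons of injected groups, edgeR called 0 of 36 or 37 members. The share of all genes called was 0% in 15 of them, 0.157% for PBS at 22 against 18 months in cerebellum and 0.00533% in cortex. Between 0 and 4 members a comparison had an unadjusted p under 0.05, against 1.68% to 15.2% of all genes, and DESeq2 and limma-voom called 0. The comparisons of 18-month mice share their PBS group and are not independent. The 31 constitutive subunits had medians from -0.06 to 0.09, with every 95% CI within 0.5 log2 units of 0.

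Between 18 and 22 months under PBS, Psmb9 changed by 0.15 ± 0.31 in cerebellum, -0.28 ± 0.26 in cortex and 0.28 ± 0.32 in hippocampus. The Psmb9 to Psmb6 ratio in cortex was lower at 22 months without overlap (log2 difference -0.37, exact permutation p = 0.0286, two-sided, adjusted p = 0.217). It was not called, though this p is the smallest that 3 against 4 mice allow. Psmb10 averaged 12.5 ± 2.54 CPM at 18 and 15.5 ± 0.895 CPM at 22 months in cerebellum (SD, n = 4 and 3). Its 22-month libraries lay above the 18-month ones (0.21 ± 0.12, edgeR adjusted p = 0.416). The lowest of the 18-month libraries, 8.74 CPM, held 9 counts of Psmb10. The base subunit Psmd1 (0.15 ± 0.06, adjusted p = 0.251) and the ATPase gene Psmc2 (0.12 ± 0.07, adjusted p = 0.422) also did not overlap, 3 of 36 members against 15.1% of all genes.

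PBS injection against no injection at 18 months changed Psmb9 by -0.01 ± 0.34, -0.38 ± 0.28 and -0.22 ± 0.34 in cerebellum, cortex and hippocampus. In cortex the 4 PBS libraries held 2.04, 1.97, 2.51 and 2.44 CPM, below the 3 naive ones at 3.86, 2.55 and 3.24 CPM. Psmb9 was lower and Psmc6 higher without overlap there, 2 of 37 members against 4.91% of all genes. The Psmb9 to Psmb6 ratio in cortex was also lower without overlap in this comparison (log2 difference -0.55, exact permutation p = 0.0286, adjusted p = 0.217). It was not called, again at the smallest p that 4 against 3 mice allow.

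Young plasma for 7 days at 18 months changed Psmb9 by 0.21 ± 0.28, 0.09 ± 0.23 and 0.29 ± 0.28 against PBS, by 0.05 ± 0.23 in the second hippocampus experiment and by 0.16 ± 0.18 over both. Hippocampal Psmb9 measured 4.30, 1.81, 2.51, 3.17 and 1.71 CPM under plasma and 2.04, 2.87, 2.64 and 1.99 CPM under PBS in the first experiment, and the groups overlapped. In the second experiment the plasma values were 1.68, 3.12, 1.92, 2.96 and 2.31 CPM and the PBS values 2.60, 2.60, 2.56 and 1.79 CPM, again with overlap. Psmb10 changed by 0.18 ± 0.12 in the second experiment and 0.09 ± 0.08 over both. In the second experiment 26 of 31 constitutive subunits were higher under plasma, with a median of 0.09 beside -0.003 for all genes. In the first experiment 14 were higher and 17 lower. The subunits of a library are not independent of each other, so these counts of signs are descriptions. Psmb5 was 98.5 ± 6.54 CPM under plasma and 90.2 ± 2.45 CPM under PBS in the second experiment (log2 change 0.16 ± 0.07, edgeR adjusted p = 0.604).

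At 22 months plasma changed Psmb9 by 0.46 ± 0.30 in cerebellum, -0.17 ± 0.27 in cortex and -0.22 ± 0.32 in hippocampus. Cerebellar values were 2.28, 3.21 and 3.01 CPM under plasma, the first from 2 counts, and 2.56, 1.97 and 2.14 CPM under PBS. In hippocampus 30 of 31 constitutive subunits were lower under plasma, from -0.19 to 0.02 with a median of -0.06, beside -0.004 for all genes, and none was called. Members varied together within hippocampal groups (median correlation 0.47), so these genes are not independent of each other and the count of signs is a description. In cortex 5 of 37 members were lower without overlap (Psmd4, Psmb2, Psmd9, Psmd8 and Psma4) and 0 were higher, against 5.16% of all genes lower in that way. The direction of that share was taken from the members. They varied together in cortex as well (median correlation 0.35), so this count is also a description.

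After 24 days, plasma against PBS changed Psmb9 by 0.51 ± 0.30 in cerebellum (edgeR adjusted p = 0.784), 0.16 ± 0.26 in cortex and -0.17 ± 0.31 in hippocampus. The cerebellar values were 3.26, 2.83 and 2.29 CPM under plasma and 3.11, 1.40, 1.53 and 2.35 CPM under PBS, and they overlapped. The last PBS value came from replicate 29, a library of 851288 counts, which enters every cerebellar result of this comparison. In cerebellum Psmd14, Psmd12, Psma2 and Psmb1 were higher without overlap and 0 members were lower, 4 of 36 members against 3.35% of all genes higher in that way. The direction of that share was again taken from the members, which are not independent of each other, so the count is a description. The ATPase gene Psmc5 was 208 ± 5.32 CPM under plasma and 178 ± 20.1 CPM under PBS there (0.19 ± 0.06, edgeR adjusted p = 0.674). Over all 17 comparisons Psmb10 stayed between -0.12 and 0.21, Psmb6 between -0.08 and 0.14, Psmb7 between -0.13 and 0.12 and Psmb9 between -0.38 and 0.51. The 95% CIs of Psmb9 reached from -0.95 to 1.12 over these comparisons. Their upper bounds lay below the age change estimated in the same region in 15 of the 17, and above it for plasma in cerebellum at 22 months and after 24 days. Those age changes carried errors of their own (SE 0.38 in cerebellum, 0.29 in cortex and 0.35 in hippocampus) and were not called. The count therefore cannot show that changes under injection were smaller than the age change.

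**Figure D5:**
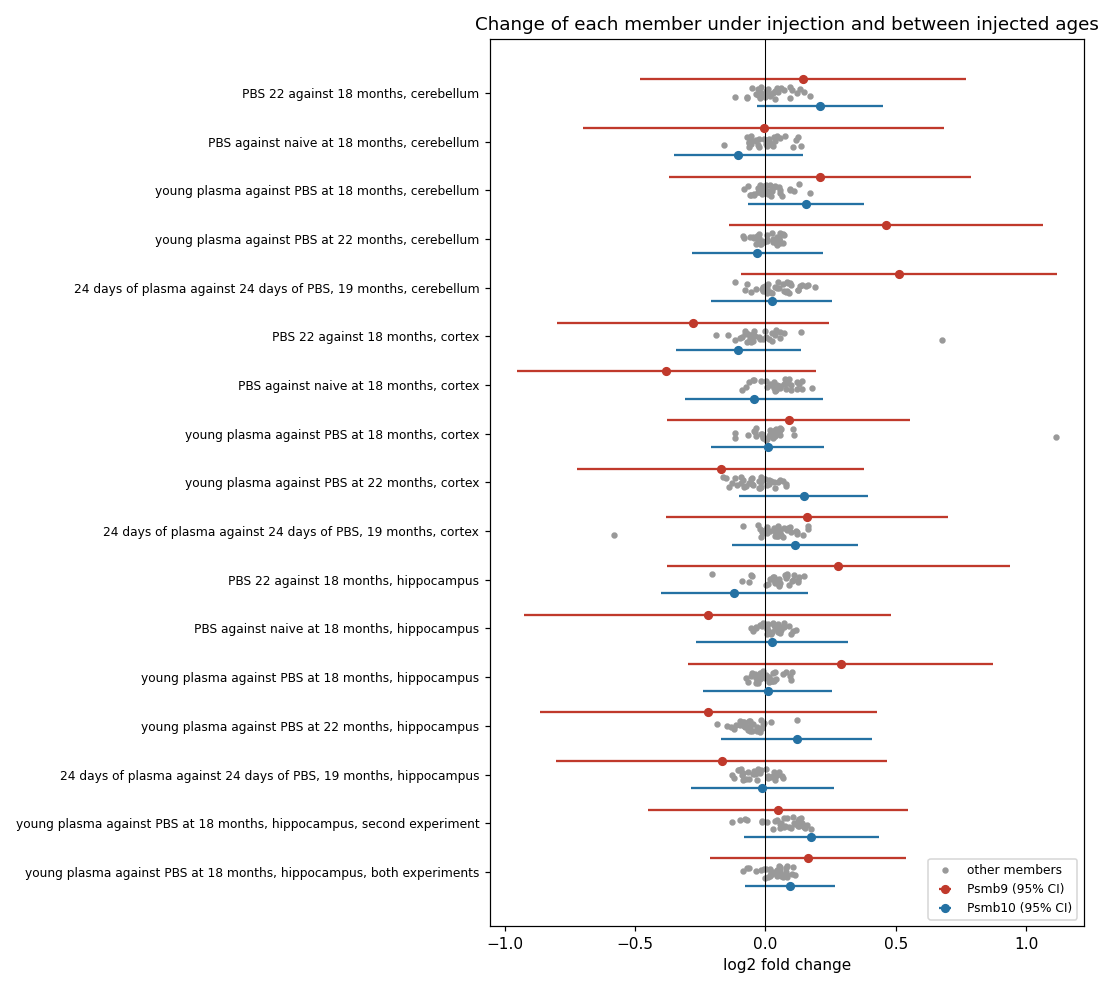
Log2 change of each tested member in 17 comparisons of injected groups, with Psmb9 (red) and Psmb10 (blue) with their 95% CI and all other members in grey. The other members lie close to 0 beside them, and the 3 distant points in cortex are Psma8, a gene near the detection limit.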

How the data were processed

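The labels' protocols describe RNeasy extraction, Smart-Seq2 cDNA and unstranded Nextera XT libraries of each mouse and region. The submitters' processing notes name Trim Galore 0.3.7, STAR 2.5.3a, GRCm38 and DESeq2, the last without a role. The deposited table gives the authors' raw count per gene symbol and library; the counting tool and annotation are not given in the sources used here. Members and lists were chosen with earlier results of these data known. 1 gene of the symbol pattern is not reported here.

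Counts were fitted with edgeR 4.0.16 (R 4.3.3; TMM factors, filterByExpr with a minimum count of 10 and total of 15, quasi-likelihood test, Benjamini-Hochberg adjustment over all genes, threshold 0.05), all groups of a region together, or the 87 libraries of the first experiment for regions. CPM are counts scaled to a library total of 1000000. P-values within a region rest on the spread between mice. The fits of the 87 libraries had no term for the mouse, so their p-values rest on the spread between libraries. They treat the libraries of 1 mouse as independent. Ratios (0.5 added to each count) had exact permutation tests. Named throughout were Psmb9, Psmb10, Psmb6 and Psmb7, and further every called member or, where fewer passed, up to 3 with the largest change per direction (6 between regions). Alternatives were DESeq2 1.42.0, limma-voom 3.58.1, other size factors, filters and left-out libraries. On data simulated for the cerebellar age comparison (17003 genes), edgeR recovered 75% of genes changed by 1 and 95% of those changed by 2 log2 units. The changed genes were drawn at random from all genes with a mean above 1 CPM, so these rates are averages over expression levels. They do not give the power for Psmb9, which lay at 0.879 to 1.27 CPM in young cerebellum. Mice link the regions by their labels; deviations from the group means correlated with a median of 0.04 between cerebellum and cortex, 0.07 between hippocampus and cortex and 0.04 between hippocampus and cerebellum over 29 mice. No 2 libraries held identical counts.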

Additional observations from a re-analysis of the deposited data

Results flagged for a closer look

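Psmb9, Psmb10, Psmb6 and Psmb7 were examined in 14 groups of 4 or 5 libraries. Of these 56 sets of values, 3 held a library far from the rest of its group, where chance gives about 1 set in 20. In the second hippocampus experiment, PBS replicate 71 had Psmb9 at 1.79 CPM (13 of 7269830 counts), while the other PBS libraries lay between 2.56 and 2.60 CPM. In naive 2-month cortex, replicate 14 had Psmb6 at 107.0 CPM against 90.0 to 91.8 CPM in the others, and this library was low in neuron markers of its own region. In cerebellum after 24 days of PBS, replicate 29 had Psmb7 at 46.99 CPM against 59.3 to 59.8 CPM, from 40 of 851288 counts, the smallest library of the series.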

How the results depend on the processing

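No member passed the threshold in any single-region comparison of ages or injections under any alternative run within a region. The Psmb9 age change kept its sign under each alternative that gave a value for it. In cerebellum the age fit of the compared groups alone did not include Psmb9 and so gave none. The mean of the 3 regions per mouse, chosen after seeing the data, gave 1 called member (Psmb9, 0.91), with Psmb10 at 0.075 and Psmb7 at 0.042, both opposite in sign to cortex, and Psma2 at -0.0011, opposite to cortex. Scaling to total counts, also added later, gave 18 higher and 10 lower members in cerebellum against cortex and 19 higher and 8 lower in hippocampus against cerebellum; in the latter Psmb9 fell to 0.19 and lost its call and Psmb6 turned to -0.047, while Psmb7 turned to 0.014 in cerebellum against cortex. In naive 2-month mice alone, called members numbered 0 higher and 9 lower in cerebellum against cortex (29.2% and 29.9% of all genes), 0 and 0 in hippocampus against cortex (2.13% and 2.11%), and 16 and 0 in hippocampus against cerebellum (29.8% and 28.6%). In these 4 mice Psmb10 in hippocampus against cortex was -0.34 (edgeR adjusted p = 0.147) and Psmb7 was -0.035. In cerebellum against cortex, limma-voom and leaving out low-marker libraries each gave 2 higher members (44.2% of all genes in both), and relative log expression factors turned Psmb6 to -0.00897.

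With the mouse as a replicate block, 1 member was higher and 26 lower in cerebellum against cortex (42.9% and 40% of all genes), 16 and 2 in hippocampus against cortex (29.4% and 30.2%), and 30 and 2 in hippocampus against cerebellum (40.5% and 43.1%); Psmb10 was at -1.33, -0.36 and 0.98 in those comparisons and Psmb9 in the last at 0.27 (edgeR adjusted p = 0.00854), so the block changed no call of either gene. Between ages and treatments no paired analysis was possible because no replicate number is shared by groups of a region.

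Other changes of sign were among values near 0. With limma-voom, Psmb10 was 0.11 for age in hippocampus, -0.0032 for PBS against naive in hippocampus and -0.16 for the age change of cortex minus hippocampus, and Psma8 was 0.23 for age in cortex. Without low-marker libraries, Psmb10 in hippocampus was 0.18 for age, 0.040 for PBS at 22 against 18 months and -0.14 for PBS against naive, and -0.24 for the age change of cortex minus hippocampus. Without shallow libraries, Psmb10 was -0.11 for that difference and 0.071 for PBS against naive in cortex, Psma8 was -0.031 in the latter, and Psmb9 was 0.038 for PBS against naive in cerebellum (0.0058 with the compared groups alone). With only mice of the title number that plasma and PBS groups share, plasma changed Psmb10 by 0.019 in cerebellum and -0.0057 in hippocampus at 22 months, and by -0.14 in cortex and -0.013 in hippocampus at 18 months, and Psmb7 by 0.075 in the last; without those mice Psmb10 there was -0.017. With the sum of the 3 constitutive catalytic genes below, the Psmb10 ratio in cortex was -0.029 for plasma at 18 months and 0.043 after 24 days. The cause of these changes was not tested.

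Leaving out each mouse in turn turned some signs. For age, ranges were -0.063 to 0.052 (Psmb6) and -0.016 to 0.051 (Psmb7) in cerebellum, -0.17 to 0.13 (Psmb10) and -0.074 to 0.070 (Psmb7) in cortex, and -0.17 to 0.081 (Psmb10) and -0.088 to 0.023 (Psmb6) in hippocampus. For PBS at 22 against 18 months, Psmb10 in cortex gave -0.17 to 0.000425 and Psmb9 in hippocampus -0.075 to 0.46. For PBS against naive, Psmb9 in cerebellum gave -0.17 to 0.23, and Psmb10 gave -0.21 to 0.088 in cortex and -0.077 to 0.094 in hippocampus. For plasma at 18 months, Psmb9 in cerebellum gave -0.013 to 0.40, Psmb10 gave -0.057 to 0.081 in cortex and -0.051 to 0.067 in hippocampus, and Psmb9 in the second experiment gave -0.053 to 0.13. For plasma at 22 months, Psmb10 in cerebellum gave -0.077 to 0.029 and Psmb9 in hippocampus -0.40 to 0.13. For 24 days, Psmb10 gave -0.064 to 0.097 in cerebellum and -0.060 to 0.056 in hippocampus, Psmb9 -0.45 to 0.11 and Psmb2 -0.021 to 0.15 in hippocampus. Leaving out mice was not run for the fit over both experiments. Depth limits the low members: Psmb9 rested on 1 to 66 counts a library, Psma8 on 0 to 21 and Psmb11 on 0 to 8.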
